A study of Homo sapiens with 8 samples.

Results

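The 9 genes described here are established transcriptional targets of p53: *CDKN1A*, *MDM2*, *SESN1*, *SESN2*, *GDF15*, *TP53INP1*, *ZMAT3*, *RRM2B* and *FDXR*. They were chosen by gene name, among 36337 gene names on the array, with earlier results of these data known. They are measured by 14 of its 50599 probes. p53 is a transcription factor that is stabilized by DNA damage and other stresses and switches on genes that halt the cell cycle, repair DNA, limit oxidants or start apoptosis. MDM2, itself a product of a target gene, ubiquitinates p53 and closes a feedback loop. The large T antigen of SV40, with which the Nthy-ori 3-1 line was immortalized, binds p53 and blocks its activity.

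RNA was hybridised to 8 one-colour Agilent SurePrint G3 arrays, with 2 arrays in each group. Nthy-ori 3-1, a non-tumoral human follicular thyroid line grown in RPMI 1640, received either premiR-375, a synthetic precursor that mimics miR-375, at 5 nM or its control. TT, a line of medullary thyroid carcinoma, a tumor of the calcitonin-producing C cells, was grown in DMEM/F12 and received either AntagomiR-375, an antisense inhibitor of miR-375, at 20 nM or its control. These concentrations are those of the labels, and the methods of the paper give higher ones. The controls are labelled CTL. The paper's transfection methods name pre-miR-CTL for Nthy-ori 3-1 and antagomiR-CTL for TT, while its array methods name pre-miR-CTL alone. RNA was taken 48 h after transfection, and the RNA integrity number was 8 for both TT controls and 9 for the other arrays. The methods call the replicates biological, while the labels do not say whether they came from separate cultures, and p-values measure the spread between these arrays only.

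The sequences on which the comparisons turn are the transfected miRNA, the MDM2 and CDKN1A probes that lie in coding sequence, and the promoter stretches of member genes that hold a p53 motif. The first line is the mature miRNA at chr2:219001648-219001669 on the minus strand of GRCh38.p14, with its seed, bases 2 to 8, in capitals, from RefSeq. The probes are 60 bases long and stand in sense orientation at chr12:69233570-69233629 (MDM2) and chr6:36652178-36652237 (CDKN1A) of hg19, the build of the scanner files. The capitals in the MDM2 probe are the stop codon that ends its reading frame.
hsa-miR-375-3p: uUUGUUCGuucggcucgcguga
MDM2 probe: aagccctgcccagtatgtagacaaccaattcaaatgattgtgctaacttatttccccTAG
CDKN1A probe: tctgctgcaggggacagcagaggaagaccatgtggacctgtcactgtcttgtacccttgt

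Promoter windows from 250 bases before to 50 bases after a RefSeq start were found for 7 member genes, 14 windows in all, some of which overlap. They were searched for the exact 10-base p53 motif, 1 arm of the paired site that p53 binds, which reads alike on both strands. It was found in 2 of the 14 windows (14.3%), against 6.63% of all 35116 windows. The matches lie 49 bases before a SESN1 start, at chr6:109009018-109009047 on the minus strand, and 11 bases before an FDXR start, at chr17:74872986-74873015 on the minus strand of GRCh38.p14, with the motif in capitals below. The windows of CDKN1A, MDM2, GDF15, SESN2 and ZMAT3 hold no exact match, which describes these windows alone. A match is a run of letters and not a measured binding site.
SESN1: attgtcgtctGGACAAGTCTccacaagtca
FDXR: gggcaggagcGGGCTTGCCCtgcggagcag

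Between 32071 and 37340 spots per array stood well above background and 0 were saturated, and the number of arrays limits the precision. Replicate arrays of a group correlated with r of 0.967 to 0.990 over probes well above background on both. The 9 C cell markers on the array were all well above background in TT controls, and 1 of the 9 in Nthy-ori 3-1 controls. Of the 10 follicular cell markers, 4 were well above background in both Nthy-ori 3-1 controls and 6 in both TT controls. Single markers of this list went both ways. PAX8, a thyroid transcription factor, measured 10.73 and 10.62 in Nthy-ori 3-1 controls and 5.09 and 5.76 in TT controls on the log2 scale (limma adjusted p of 0.000144). FOXE1, another, measured 8.80 and 8.72 in Nthy-ori 3-1 controls and did not stand well above background in TT controls. TG, the thyroglobulin gene, went against the labels with 4.72 and 5.02 in Nthy-ori 3-1 and 9.13 and 9.13 in TT controls. NKX2-1 measured 12.35 and 12.21 in TT controls and was not well above background in Nthy-ori 3-1 controls. Of 10 fibroblast markers, 3 were well above background in both Nthy-ori 3-1 controls (COL1A1, PDGFRB and THY1). A different 3 were so in both TT controls (DCN, LUM and PDGFRA). COL1A1 measured 14.21 and 13.39 in Nthy-ori 3-1 controls and was not well above background in TT controls. PDGFRA went the other way, with 6.40 and 6.35 in TT controls.

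All levels below are normalized log2 intensities, in which 1 unit is a doubling, and a fold change of a transfection is the mean of its within-slide differences, while that between lines is the difference of the group means. A gene was called where its limma p was at most 0.05 after Benjamini-Hochberg adjustment across every probe tested. Its brightest probe stood for it, and levels are compared between arrays, never between genes. In bulk RNA, fewer expressing cells and less RNA per cell cannot be told apart.

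The mimic comparison asks what miR-375 does to genes of the p53 pathway in Nthy-ori 3-1 cells. Most members were higher with the mimic: 7 of 9 in both pairs of arrays, where 32.5% of all genes were (41.4% of genes with a mean level of at least 6), with a median log2 fold change of 0.585 against 0.004 over all genes. None was called, and 0% of all genes were, the smallest adjusted limma p over all probes being 0.318. At an unadjusted p under 0.05, 5 of 9 were higher and 0 lower, where 7.48% of all genes were higher. The members were chosen with earlier results of these data known, so these counts are a description and not a test. The largest differences were those of SESN1 (2.88-fold), TP53INP1 (2.20-fold) and CDKN1A (2.03-fold). SESN1's log2 difference of 1.53 was 0.72 with normexp background correction and 0.85 with the deposited log2 values, and with normexp CDKN1A and TP53INP1 gave 0.74 each. With no replicate block in the fit, 0 of 9 members had an unadjusted p under 0.05.

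CDKN1A encodes p21, the inhibitor of cyclin-dependent kinases through which p53 arrests the cell cycle. Its level was 6.28 and 7.53 on the control arrays and 7.20 and 8.64 on the mimic arrays. The groups overlap, as the second slide read higher for both, while each mimic array lay above the control of its own slide, by 0.93 and 1.11. The mean difference was 1.02 ± 0.103 (moderated SE, n = 2 pairs), with an unadjusted limma p of 0.0103 and an adjusted p of 0.318.

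**Figure D1:**
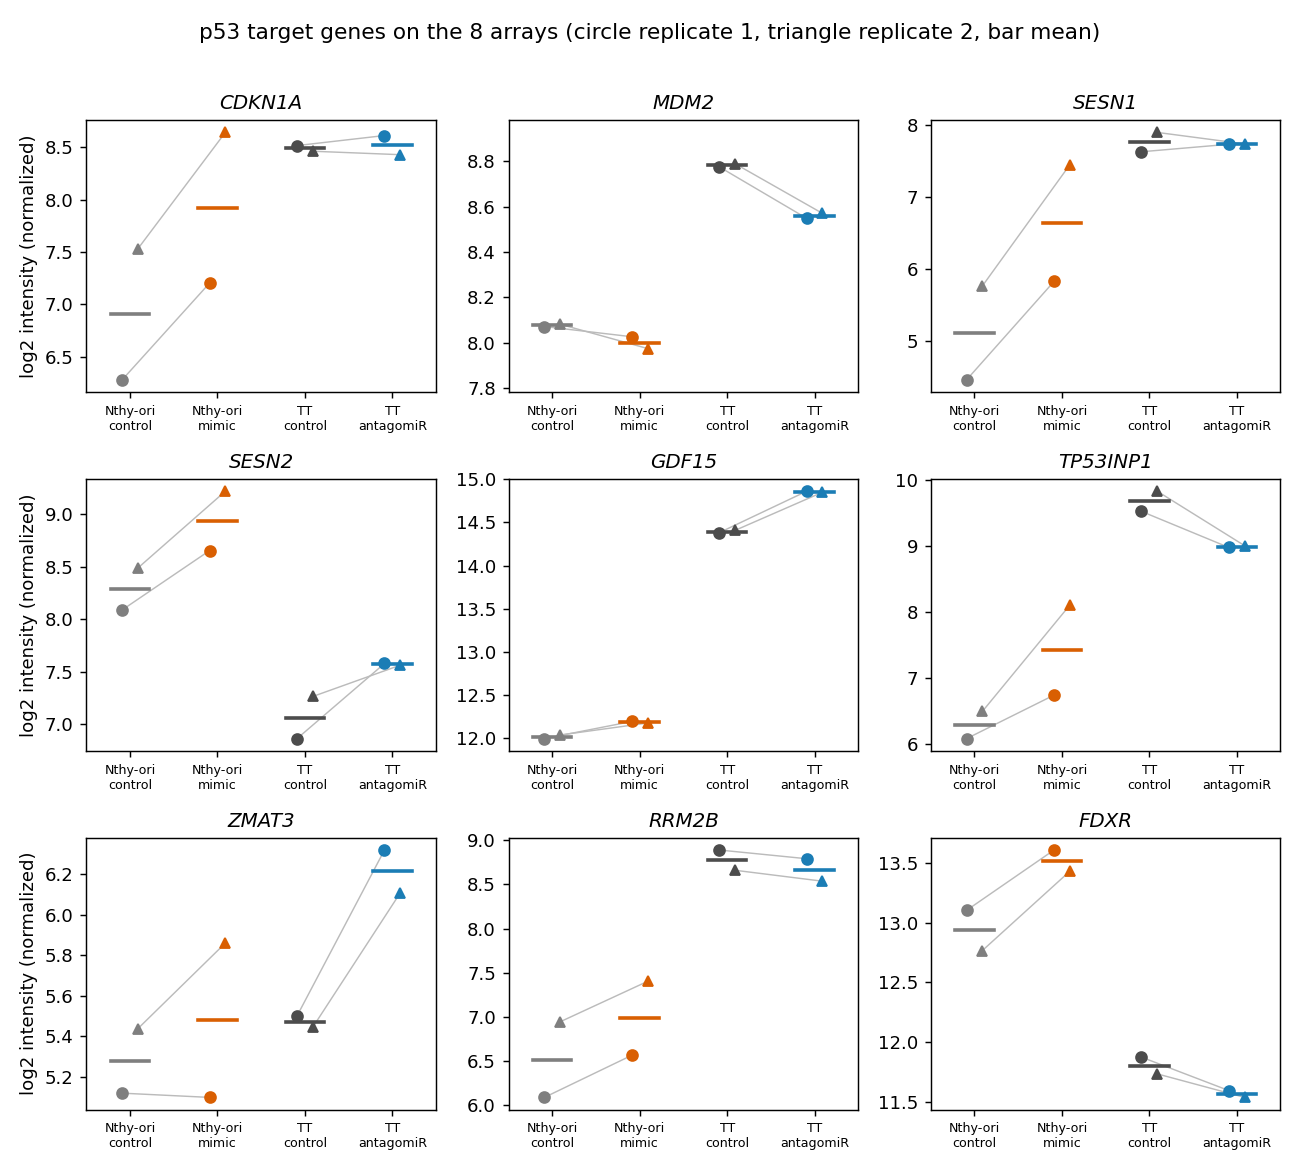
Normalized log2 intensity (vertical axis, a scale of its own in each panel) of the 9 p53 target genes in the 4 groups, with a circle for replicate 1, a triangle for replicate 2, a bar for the group mean and a grey line joining arrays of the same slide. CDKN1A, SESN1 and TP53INP1 slope upwards from Nthy-ori 3-1 control to mimic on both slides, and the TT arrays of CDKN1A lie between 8.43 and 8.61.

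MDM2 closes the feedback loop, and its coding probe was nearly level: 8.07 and 8.08 in controls against 8.03 and 7.97 with the mimic. Both mimic arrays lay below both controls, by a mean of -0.08 with a 95% interval of -0.43 to 0.28. MDM2 has 3 further probes, which start 252, 3335 and 5321 bases beyond the start of the coding probe and therefore lie in the 3′ untranslated region. They read lower with the mimic in both pairs, by means of -0.43, -1.02 and -0.73. The probe 3335 bases downstream gave 5.76 and 6.72 in controls and 4.64 and 5.80 with the mimic, an unadjusted limma p of 0.0113 and an adjusted p of 0.318. That 5321 bases downstream gave 7.87 and 7.96 in controls and 7.03 and 7.34 with the mimic, groups that do not overlap, with an unadjusted limma p of 0.0223 and an adjusted p of 0.318. For the probe nearest to the stop codon the unadjusted limma p was 0.0542. The 4 probes of MDM2 therefore do not give 1 answer for the gene, and the mean over them gave a log2 fold change of -0.56.

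**Figure D2:**
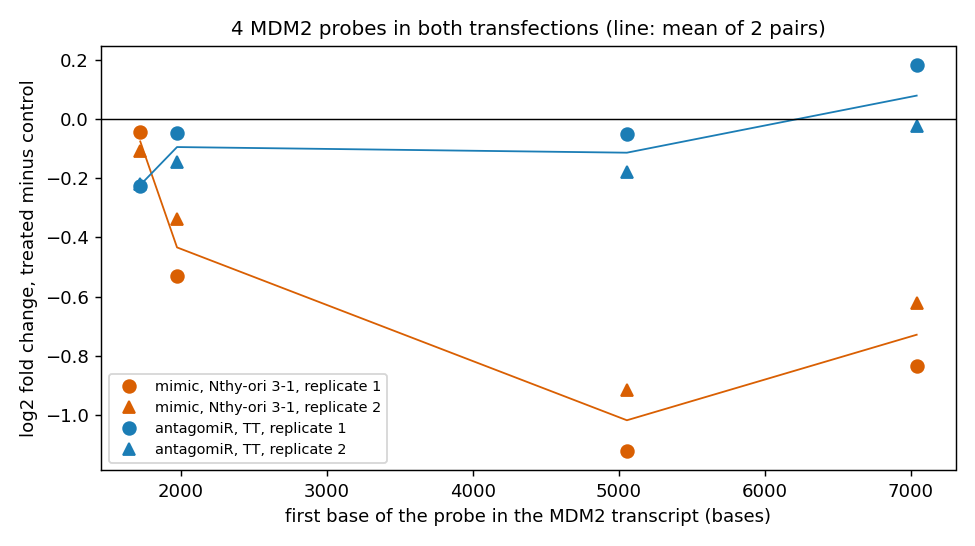
Log2 fold change, treated minus control of the same slide (vertical axis), of the 4 MDM2 probes against their first base in the transcript (horizontal axis, bases), for the mimic in Nthy-ori 3-1 (orange) and the antagomiR in TT (blue), with lines through the mean of both pairs. With the mimic the coding probe lies near 0 and the 3 probes beyond the stop codon between -0.34 and -1.12, and with the antagomiR all 4 lie between -0.23 and 0.18.

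SESN1 and SESN2 encode sestrins, which restrain the growth kinase mTORC1 and take part in antioxidant defence. SESN1 gave 4.46 and 5.76 in controls, the lower of which was not well above background, and 5.82 and 7.44 with the mimic. The groups do not overlap, though by a narrow margin, and the difference was 1.53 ± 0.137 (SE), with an unadjusted limma p of 0.00811 and an adjusted p of 0.318. SESN2 gave 8.09 and 8.49 in controls and 8.65 and 9.22 with the mimic, all mimic arrays above all controls. Its difference was 0.65, or 1.57-fold, with an unadjusted limma p of 0.0227.

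GDF15, a secreted stress cytokine of the TGF-β family, gave 11.99 and 12.03 in controls and 12.19 and 12.17 with the mimic. The mimic arrays lay above the controls by a mean of 0.17, with a 95% interval of -0.19 to 0.53. TP53INP1 encodes a stress protein of the nucleus that promotes cell death and autophagy. It gave 6.08 and 6.49 in controls and 6.74 and 8.10 with the mimic, higher on both slides, by 0.66 and 1.61. The pairs were so unequal that the mean of 1.14 had a 95% interval of -0.36 to 2.63. Its second probe, in an earlier part of the transcript, was 0.96 and 1.30 higher, with an unadjusted limma p of 0.0165.

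ZMAT3 encodes a zinc finger protein that binds RNA and affects mRNA stability and splicing. It gave 5.12 and 5.44 in controls and 5.10 and 5.86 with the mimic, 1 pair being level and the other higher. RRM2B, the p53-inducible subunit of ribonucleotide reductase that supplies nucleotides for DNA repair, gave 6.08 and 6.94 in controls and 6.56 and 7.40 with the mimic. The groups overlap and both pairs differ by nearly the same amount, 0.48 and 0.46, with an unadjusted limma p of 0.0281. Its second probe gave pairs as unequal as 0.31 and 1.88, with an unadjusted limma p of 0.190. FDXR, the ferredoxin reductase of mitochondria that feeds electrons to steroid and iron-sulfur cluster synthesis, gave 13.10 and 12.77 in controls and 13.61 and 13.43 with the mimic. All mimic arrays lay above all controls, and the difference was 0.59 ± 0.0974 (SE), with an unadjusted limma p of 0.0269.

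Across members, the mimic arrays lay wholly above the controls for 5 of 9 genes, against 16.0% of all genes, and wholly below for MDM2 alone, against 15.1%. Only SESN1 passed the adjusted threshold in any setting, when dim probes were left out (adjusted limma p of 0.0443). In that setting 999 of 26318 probes were called. Over all settings the adjusted limma p of SESN1 ranged up to 0.874. C cell markers moved with the mimic as well. The summed level of the 9 markers was 7.27 to 7.33 on the control arrays, 9.22 to 9.32 on the mimic arrays and 18.92 to 19.08 on the TT controls, all log2, and 6 to 7 of 9 were well above background on mimic arrays against 1 on each control array. SCG2 (2.10 and 4.62 in controls, 6.72 and 8.42 with the mimic) and SYP (1.91 and 2.11, then 5.50 and 6.16), both genes of secretory vesicles, contributed most consistently, whereas RET and GRP did not differ in this way (RET 6.37 and 5.83, then 6.19 and 5.50). Their part in the values of the p53 targets was not tested.

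The antagomiR comparison asks what happens to the same genes when miR-375 is inhibited in TT cells. No common direction appeared: 3 of 9 members were higher in both pairs and 4 lower, where 31.2% and 30.9% of all genes were. The median of the members was -0.028 against 0.0 over all genes. None was called, and 0% of all genes were, the smallest adjusted limma p over all probes being 0.512. At an unadjusted p under 0.05, GDF15 and ZMAT3 were higher, where 4.92% of all genes were, and TP53INP1 was lower, where 4.89% were. Leaving out TT replicate 1 or 2, after which the spread comes from the Nthy-ori 3-1 pairs, left log2 fold changes of 0.44 to 0.48 for GDF15, 0.66 to 0.82 for ZMAT3 and -0.83 to -0.55 for TP53INP1, none of them with an unadjusted limma p under 0.05, and SESN2 passed that level without replicate 2. The antagomiR arrays lay wholly above the controls for 3 members (22.5% of all genes) and wholly below for 3 (20.5% of all genes). The RNA integrity number was lower in the TT controls than in the antagomiR arrays, and its part in these values was not tested.

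**Figure D3:**
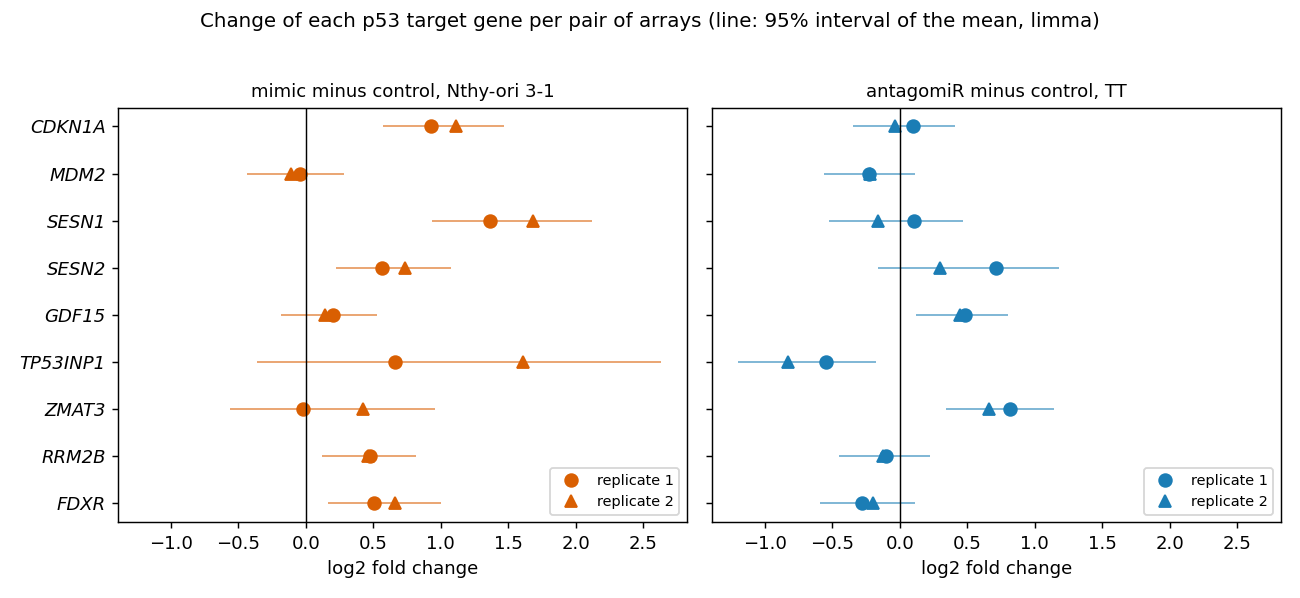
Log2 fold change of each p53 target gene (horizontal axis), mimic minus control in Nthy-ori 3-1 on the left and antagomiR minus control in TT on the right, with a circle for the pair of replicate 1, a triangle for that of replicate 2 and a line for the 95% interval of the mean (limma). On the left 7 of 9 genes have both points above 0, and on the right 3 have.

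CDKN1A was level in TT cells, at 8.52 and 8.46 in controls and 8.61 and 8.43 with the antagomiR, a difference of 0.03 with a 95% interval of -0.35 to 0.41. SESN1 was likewise level, at 7.62 and 7.89 against 7.73 and 7.73, with an interval of -0.52 to 0.47. MDM2 gave 8.78 and 8.79 in controls and 8.55 and 8.57 with the antagomiR, lower on both slides by -0.22, with an unadjusted limma p of 0.106. Its 3 other probes gave means of -0.10, -0.11 and 0.08.

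In TT cells, GDF15 gave 14.38 and 14.41 in controls and 14.86 and 14.85 with the antagomiR. Both antagomiR arrays exceeded both controls, the mean difference being 0.46 ± 0.0835 (SE), or 1.38-fold, with an unadjusted limma p of 0.0270 and an adjusted p of 0.512. ZMAT3 gave 5.50 and 5.44 in controls and 6.32 and 6.11 with the antagomiR, 1.67-fold higher, with an unadjusted limma p of 0.0142 and an adjusted p of 0.512. SESN2 gave 6.86 and 7.26, then 7.58 and 7.56, higher on both slides though unequally, by 0.72 and 0.30.

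TP53INP1 was lower with the antagomiR, at 9.52 and 9.83 in controls and 8.98 and 9.00 in treated cells. The groups do not overlap, and the difference was -0.69 ± 0.126 (SE), or 0.622-fold, with an unadjusted limma p of 0.0279 and an adjusted p of 0.512. Its second probe was lower by -0.69 and -1.04, so that both probes gave the same direction in each transfection. RRM2B gave 8.89 and 8.66 in controls and 8.79 and 8.54 with the antagomiR, groups that overlap, while its second probe gave unequal pairs of 0.13 and -1.19. FDXR gave 11.87 and 11.73, then 11.59 and 11.54, lower on both slides by a mean of -0.24 with a 95% interval of -0.59 to 0.12.

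Whether the transfections acted differently on a gene was tested as the antagomiR effect minus the mimic effect in 1 fit of all 8 arrays. A mimic and an inhibitor are meant to act in opposite directions, so a difference is not by itself a difference between the lines. Reagent, concentration, line, medium, slide and scan day cannot be told apart in it. None of the 9 members differed at the adjusted threshold, and 0% of all genes did. At an unadjusted p under 0.05, 5 of 9 had a lower effect with the antagomiR than with the mimic, where 8.84% of all genes had. These were SESN1 (-1.55, 95% interval -2.18 to -0.93), TP53INP1 (-1.82, -3.09 to -0.56), CDKN1A (-0.99, -1.45 to -0.53), FDXR (-0.82, -1.25 to -0.40) and RRM2B (-0.58, -0.95 to -0.21). By their brightest probes, TP53INP1, RRM2B and FDXR had opposite signs in the 2 transfections on every slide, which did not hold for the second probe of RRM2B. The difference in FDXR passed the adjusted threshold with normexp background correction (limma adjusted p of 0.0281) and with the deposited log2 values (0.0457). In these settings 2600 of 50582 and 1704 of 50599 probes passed it.

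The comparison of control cells asks how far the lines differ in the same genes before any change in miR-375. TT controls exceeded Nthy-ori 3-1 controls in 7 of 9 members and were lower in 2, with no overlap of arrays in any of the 9, against 28.7% of all genes wholly above and 36.7% wholly below. Of these, 5 were called higher (15.7% of all genes) and 2 lower (15.1%). Among genes with a mean level of at least 6 these shares were 23.6% and 24.4%. The median difference of the members was 1.585, against -0.048 over all genes. Line, medium, slide, scan day and, in part, RNA integrity cannot be told apart here.

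TP53INP1 differed most, at 9.52 and 9.83 in TT against 6.08 and 6.49 in Nthy-ori 3-1, a 10.5-fold difference (log2 3.39 ± 0.454, limma adjusted p of 0.00356). With normexp and with the deposited values it was 2.55 and 2.37, and the log2 difference of SESN1, 2.65, was 1.46 and 1.33. SESN1 was 6.28-fold higher (limma adjusted p of 0.0170), and 1 of its 2 Nthy-ori 3-1 controls was not well above background. GDF15 was 5.21-fold higher, with an SD of 0.03 in Nthy-ori 3-1 and 0.02 in TT controls, and had the smallest adjusted p of the members (7.8e-05 by limma). RRM2B was 4.80-fold higher (limma adjusted p of 0.00486). MDM2 was 1.63-fold higher by its coding probe (log2 0.71, 95% interval 0.43 to 0.98, limma adjusted p of 0.00586), and its other probes gave 0.69, 1.11 and 0.14, none of them called.

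CDKN1A was 3.0-fold higher in TT, but its Nthy-ori 3-1 controls had an SD of 0.89 and the difference was not called (limma adjusted p of 0.0680, and 0.0290 to 0.0333 in the 3 settings that called it). ZMAT3 was level between the lines, with a difference of 0.19 and a 95% interval of -0.48 to 0.87, its nearest arrays being 5.44 in each line. The 2 members lower in TT were SESN2 (0.428-fold, limma adjusted p of 0.0174) and FDXR (0.457-fold, limma adjusted p of 0.00384). From the highest signed value to the lowest, the order of the differences was TP53INP1, SESN1, GDF15, RRM2B, CDKN1A, MDM2, ZMAT3, FDXR and SESN2. With normexp and with the deposited values, GDF15 (2.34 and 1.99) and RRM2B (1.67 and 1.45) stood above SESN1. The intervals of TP53INP1, SESN1, GDF15, RRM2B and CDKN1A overlap one another, those of CDKN1A, MDM2 and ZMAT3 overlap, and those of FDXR and SESN2 overlap. The call of SESN1 was lost without ORI_CTL replicate 1 (limma adjusted p of 0.0823) or TT_CTL replicate 2 (0.0627), and that of SESN2 without ORI_CTL replicate 2 (0.0735) or TT_CTL replicate 1 (0.0582). In a fit of the control arrays alone the limma adjusted p was 0.0517 for SESN2, and that of SESN1 lay just past the threshold, so that neither was called. That of MDM2 was lost with 75th percentile scaling (0.0537) and with the deposited log2 values (0.0516).

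**Figure D4:**
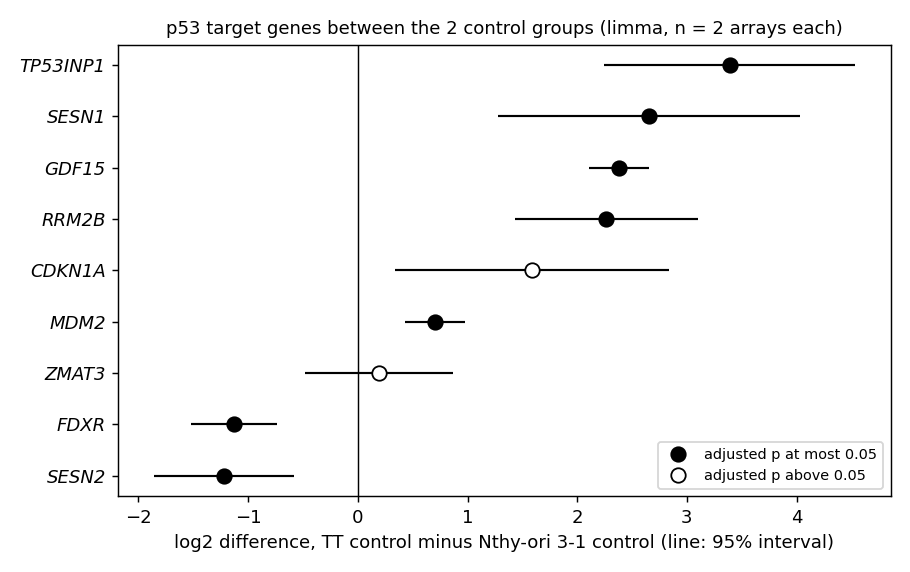
Log2 difference between TT and Nthy-ori 3-1 control arrays (horizontal axis) for each p53 target gene, with its 95% interval (limma, n = 2 arrays each), filled where the adjusted p was at most 0.05. Of the 9 genes, 5 lie to the right with filled points, FDXR and SESN2 lie to the left, and CDKN1A and ZMAT3 are open.

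Other targets of p53 were 38 genes in 3 lists. With the mimic, 20 of 38 were higher in both pairs and 11 lower, where 32.5% and 27.8% of all genes were, with a median of 0.215. At an unadjusted p under 0.05, 11 were higher and 5 lower, where 7.48% and 7.4% of all genes were, and none was called. Of 10 genes of cell cycle and feedback, 3 were higher and 2 lower by the unadjusted p. BTG2, an antiproliferative factor, had the largest difference upwards (8.43 and 8.07 in controls, 9.58 and 9.65 with the mimic, log2 fold change 1.36), followed by E2F7 (0.76), a repressor of E2F targets, and PPM1D (0.71), the phosphatase that dampens p53 signalling. PLK2, a polo-like kinase, gave -1.34 (14.19 and 14.40, then 12.78 and 13.12), and the DNA damage gene GADD45A gave -0.60.

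Of 13 targets linked to death and survival, 4 were higher and 1 lower by the unadjusted p, where 7.48% and 7.4% of all genes were. The median of the 13 was 0.331. TP53I3, a quinone oxidoreductase, gave 0.96 and TNFRSF10B, a death receptor for TRAIL, 0.46, while the nuclease gene AEN gave -0.54 and BAX, a pore-forming member of the BCL2 family, -0.14. Of 15 targets of repair, metabolism and other roles, 4 were higher and 2 lower by the unadjusted p. GLS2, a glutaminase, gave 1.29, TIGAR, which limits glycolysis, 1.03, and SUSD6 0.65. DRAM1, a lysosomal protein of autophagy, had the lowest fold change of the 38, -1.49 (10.24 and 9.88 in controls, 8.56 and 8.59 with the mimic).

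**Figure D5:**
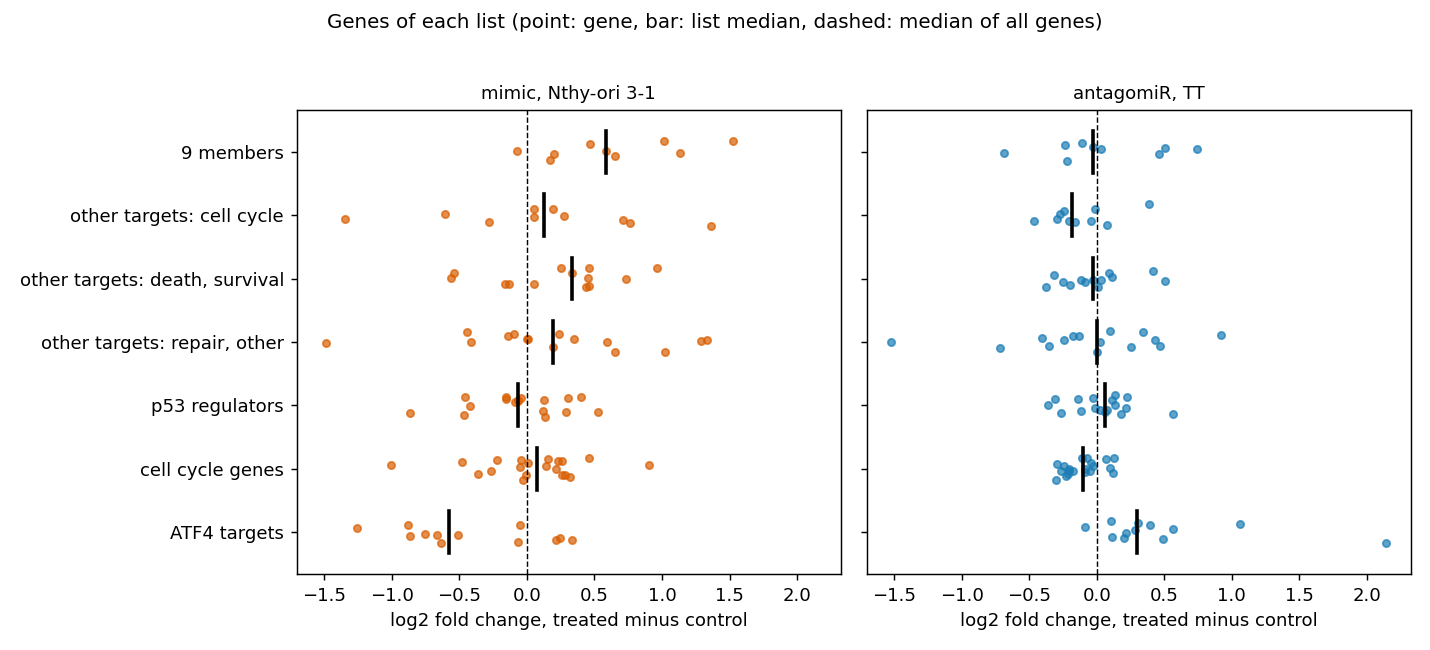
Log2 fold change, treated minus control (horizontal axis), of every gene in 7 lists, for the mimic in Nthy-ori 3-1 on the left and the antagomiR in TT on the right, with a bar at the list median and a dashed line at the median of all genes. With the mimic the 9 members have the highest median (0.585) and the ATF4 targets the lowest (-0.574), and with the antagomiR the ATF4 targets have the highest (0.296).

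With the antagomiR, the 38 other targets had a median of -0.067. By the unadjusted p 3 were higher and 2 lower, where 4.92% and 4.89% of all genes were. DRAM1 gave 0.92 (8.44 and 8.36 in controls, 9.28 and 9.37 treated), BBC3, the gene of the apoptosis inducer PUMA, gave 0.50 and NINJ1, a membrane protein, gave 0.43. E2F7 gave -0.46, BAX -0.38 and DDB2, a sensor of ultraviolet damage, -0.36. DRAM1 and PLK2 thus gave opposite signs in the 2 transfections, as did BTG2 and E2F7 in the reverse sense. Between the lines, 13 of the 38 were called higher in TT (34.2%, against 15.7% of all genes) and 12 lower (31.6%, against 15.1%). Of genes with a mean level of at least 6, 23.6% were called higher and 24.4% lower. The median of the 38 was 0.015. BTG2 (3.91), TP53I3 (3.69) and GLS2 (3.44) were called higher in TT, and PLK2 (-3.29), TNFRSF10B (-3.31) and POLH (-2.86), a polymerase that bypasses lesions, were called lower. TNFRSF10D, a decoy receptor for TRAIL, gave 9.86 and 10.21 in Nthy-ori 3-1 controls and did not stand well above background on either TT control.

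Regulators of p53, 17 genes all well above background, had a median of -0.069 with the mimic. By the unadjusted p 1 was higher and 2 lower, where 7.48% and 7.4% of all genes were. CHEK2, the checkpoint kinase, gave 0.52, and USP7, a deubiquitinase that acts on MDM2 and p53, gave -0.87. With the antagomiR 1 was lower by the unadjusted p, CHEK2 at -0.36, where 4.89% of all genes were. Between lines 3 were called higher in TT (17.6%, against 15.7% of all genes and 23.6% of those with a mean of at least 6). Called lower were 6 (35.3%, against 15.1% and 24.4%). The largest difference was that of CDKN2A, which encodes p16 and the MDM2 inhibitor ARF, at -4.49, and PPP1R13L, an inhibitor of p53, gave -4.10.

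Cell cycle genes whose transcription falls when p21 is high, 20 in the list, had a median of 0.076 with the mimic. By the unadjusted p 2 were higher and 1 lower, where 7.48% and 7.4% of all genes were. CCNE2 (0.90) and CDC25A (0.46) were higher, and BIRC5 (-1.0), the gene of survivin, was lower. With the antagomiR the median was -0.101 and 0 of 20 had an unadjusted limma p under 0.05. Of all genes, 4.92% were higher and 4.89% lower at that level. Between the lines 0 were called higher in TT (against 15.7% of all genes and 23.6% of those with a mean of at least 6). Called lower were 6 (30%, against 15.1% and 24.4%). Among the 6 were MKI67 (-2.33), MYBL2 (-2.27) and AURKA (-2.09).

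GDF15 and SESN2 are also targets of ATF4, the transcription factor of the integrated stress response, so 12 ATF4 targets were set beside them. With the mimic 9 of 12 were lower in both pairs, where 27.8% of all genes were. At an unadjusted p under 0.05, 5 were lower (7.4% of all genes) and 0 higher (7.48%). The median of the list was -0.574. PSAT1, of serine synthesis, gave -1.26 and DDIT3, the gene of CHOP, -0.88, while SESN2 was higher in the same cells. With the antagomiR 9 of 12 were higher in both pairs, where 31.2% of all genes were. The list had a median of 0.296. By the unadjusted p 5 were higher (4.92% of all genes), among them ATF3 (2.14), SLC7A11 (1.06) and CEBPB (0.56). GDF15 and SESN2 were higher there too. No ATF4 target was called in either transfection, and 0% of all genes were. Between the lines the list had a median of -2.101. In TT 9 of 12 were called lower (15.1% of all genes) and 1 higher (15.7%). Among genes with a mean level of at least 6 these shares were 24.4% and 23.6%. GDF15 was higher in TT controls and SESN2 lower.

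Across the 8 arrays, the genes whose levels followed CDKN1A most closely, among 15234 genes well above background on every array, were RFWD2 (the array's name for COP1, a ubiquitin ligase of p53; Pearson r of 0.984), FNDC3A (0.983) and KITLG (0.979). Those closest to MDM2 were RBM33 (0.999), ATF7 (0.997) and SH3YL1 (0.996). The arrays share lines, slides and transfections, and these values describe likeness over differences of all these kinds, CDKN1A itself ranging from 6.28 to 8.64 within Nthy-ori 3-1.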

How the data were processed

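The authors deposited, for each array, Feature Extraction 10.10.1.1 output with spot intensity, background subtracted and detrended but not scaled between arrays, and a table of log2 values made with limma. For the present values, the log2 of the processed intensity was taken without control and outlier spots (341 to 428 outliers per array). Spots of a probe were averaged, and quantile normalization ran over all 8 arrays (limma 3.58.1, R 4.3.3). Each line had a fit of its own (lmFit, eBayes) blocked on the replicate number, since arrays of equal number within a line share a slide (their deviations from group means correlated at r of 0.785 in Nthy-ori 3-1 and 0.329 in TT). Nthy-ori 3-1 was scanned on day 1 and TT on day 2. The lines were compared in a fit of 4 groups with slide as a random block, and the difference of effects in a fit of both lines. Tests were two-sided. Shares of all genes count 1 probe a gene. Each line's fit has 1 residual degree of freedom, and an exact permutation test of 2 against 2 arrays has a smallest p of 0.333.

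The members and gene lists were chosen with earlier results of these data known. Listed genes were named by rule: the 3 largest rises and falls of each list and comparison among probes with a mean of at least 6 that moved alike in both pairs, or, between the lines, whose groups did not overlap. The steps were tested on simulated data. Symbols that the array lists under an older name were matched through it.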

Additional observations from a re-analysis of the deposited data

How the results depend on the processing

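The numbers of members called were 0 in both transfections under every alternative but 1. With dim probes left out the mimic had 1 called member (SESN1, limma adjusted p of 0.0443), and 999 of 26318 probes were called. Between the lines 5 to 8 members were called. The control arrays alone gave 5, with 13029 of 50584 probes called. Counts of 8 came with 14990 of 30458 probes (dim probes left out), 11041 of 22585 genes (mean over probes) and 15728 of 50582 probes (normexp). The difference between the transfections gave 1 called member (FDXR) with normexp background and 1 with the deposited log2 values, against 0 otherwise. Of all probes, 2600 of 50582 and 1704 of 50599 were called in these 2 settings. With no replicate block the median of the members was 0.58 with the mimic and 0 were called, but 0 of 9 had an unadjusted limma p under 0.05 against 5 with the block. The block changed no other call. The median difference between transfections was -0.58 and moved to -0.64 with 75th percentile scaling, -0.60 with quantile normalization within each line, -0.36 with normexp, -0.43 with the deposited values and -0.82 with the mean over probes. It was -0.59 to -0.57 when a replicate of either line was left out. The antagomiR median of -0.03 was -0.13 with the deposited values, -0.12 without TT replicate 1 and 0.10 without TT replicate 2. Of single members, ZMAT3 reversed between the lines with the deposited values (-0.18) and MDM2 in the difference between transfections with the mean over probes (0.48). Leaving out a replicate turned ZMAT3 with the mimic (-0.02 to 0.42), CDKN1A (-0.03 to 0.10) and SESN1 (-0.16 to 0.10) with the antagomiR, and SESN2 in the difference between transfections (-0.35 to 0.07). Quantile normalization within each line shifted the median of all genes between the lines by -0.455 and the deposited values by -0.315, against -0.054, and no other member changed direction. The causes were not tested.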
